A study of Mus musculus with 6 samples.

Results

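The genes of antigen presentation were followed in mouse bone marrow monocytes, cultured precursors of macrophages and osteoclasts, at day 5 and day 0 of treatment with RANKL, the cytokine that turns them into bone-resorbing osteoclasts. All symbols beginning with H2-, the prefix of the mouse major histocompatibility complex (MHC), were taken, with B2m, Cd74, Ciita, Nlrc5, Tap1, Tap2, Tapbp, Erap1, Cd80, Cd86 and Cd1d1. This gave 44 of the 28795 genes in the table: 29 of class I, 11 of class II and 4 others. The day 5 group held 3 libraries of cells given RANKL at 50 ng/ml for 5 days, and the day 0 group held 3 libraries of cells at 0 days. All cultures were grown in M-CSF at 50 ng/ml, the growth factor that keeps these cells alive, and the labels name no genotype, strain or age. The treatment label reads RANKL on both days and the protocol speaks of cells with or without it, so the time label set the groups. No culture kept in M-CSF alone for 5 days was analysed here, so RANKL and time in culture cannot be told apart. Nothing in the labels ties the 3 libraries of a day to separate animals or cultures. The p-values therefore reflect library-to-library spread, which may be technical.

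Counts over all genes summed to 70888492 to 73234377 per library at day 5 and to 64616609 to 82721513 at day 0. The library day 0 replicate 1 stood apart in that 4.09% of its counts fell in CT010467, an 18S-related gene, against 0.158% to 0.508% in the other 5. Csf1r, the M-CSF receptor, and Adgre1, the macrophage antigen F4/80, were present on both days (206.5 ± 19.8 and 64.0 ± 5.03 FPKM at day 5, 330.1 ± 20.4 and 267.9 ± 11.3 FPKM at day 0). Ly6c2 and Ccr2, which mark inflammatory monocytes, stayed under 0.4 FPKM on both days. All 8 listed osteoclast markers rose (adjusted p under 0.05, edgeR), where 26.6% of all genes tested did. Their summed level was 25540.2 to 28609.1 CPM (counts scaled to library size) at day 5 and 321.6 to 487.5 CPM at day 0. The 9 macrophage and monocyte markers summed to 2816.6 to 3413.1 CPM at day 5 and 5359.4 to 5592.1 CPM at day 0. Of 7 tested 5 fell past the size threshold (a log2 difference of 1), where 6.47% of all genes tested did. Cd68 rose, at 906.6 ± 76.7 FPKM at day 5 and 594.1 ± 11.4 FPKM at day 0. The 8 stromal and osteoblast markers were led by collagen genes. They summed to 10056.9 to 11192.4 CPM at day 5 and 14389.2 to 19801.7 CPM at day 0. All 7 tested fell, 2 of them past the size threshold, where 28.8% and 6.47% of all genes tested did so. The fall of Runx2, one of the 7, was lost under 8 alternatives, among them each fit without day 0 replicate 2 or 3 or day 5 replicate 2 or 3 (adjusted p = 0.0515 to 0.0744, edgeR). Endothelial, neutrophil and erythroid markers summed to 17.2 CPM or less per list in every library. Endothelial markers were at 6.84 to 7.34 CPM at day 5 and 16.7 to 17.2 CPM at day 0. Neutrophil markers were at 6.05 to 15.4 CPM at day 5 and 3.46 to 6.55 CPM at day 0. Erythroid markers were at 0.301 to 1.06 CPM at day 5 and 0.743 to 2.58 CPM at day 0. In such bulk samples fewer cells of a type and less RNA per cell cannot be told apart.

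MHC class I molecules sit on almost all nucleated cells and show peptides from the cytosol to CD8 T cells. A polymorphic heavy chain pairs with beta-2 microglobulin, and the peptide is trimmed, carried into the endoplasmic reticulum by the TAP transporter and loaded with the help of tapasin. Class II molecules show peptides from endosomes to CD4 T cells and are made mainly by dendritic cells, B cells and activated macrophages. Their chains are held by the invariant chain until the DM molecule exchanges its remnant for peptide. Interferon gamma raises both classes, class I through NLRC5 and class II through CIITA.

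Levels below are the authors' FPKM, which allow for gene length and library depth. Each log2 difference is the day 5 level less the day 0 level with its standard error (SE). Counts were tested by the quasi-likelihood method of edgeR with Benjamini-Hochberg adjustment over the 11908 genes that reached 1 FPKM in at least 3 of the 6 libraries. "Rose" and "fell" are used of an adjusted p under 0.05. The size threshold is a log2 difference of 1 in either direction. Of the 44 members 26 were tested, 18 fell under the filter and 3 of those 18 had no count in any library.

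Class I genes were lower at day 5, most of them by less than the size threshold. Of 18 tested class I members 13 fell (72.2%), where 28.8% of all genes tested fell, and 2 rose (11.1%), where 26.6% rose. In either direction 15 of 18 were called, against 55.5% of all genes. Past the size threshold 4 of the 18 fell (22.2%) and 0 rose, against 6.47% and 5.84% of all genes and 12.3% in either direction. In CPM the 3 day 5 libraries all lay below the 3 day 0 libraries for 13 of the 18 and above them for 3, where 32.2% and 31.1% of all genes did so, together 63.3%. The median log2 difference of the 18 was -0.49, against -0.0041 over all tested genes. One of the 4, H2-K2, reached 1 FPKM at day 0 only, so its place among the tested genes required a difference, and the counts describe the tested members rather than all 29. Summed over the 23 heavy chain genes and pseudogenes, the level was 603, 533 and 540 FPKM at day 5, against 725, 729 and 679 FPKM at day 0. The stromal, macrophage and osteoclast marker levels given above also differed between the days, and their part in the class I difference was not tested.

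**Figure D1:**
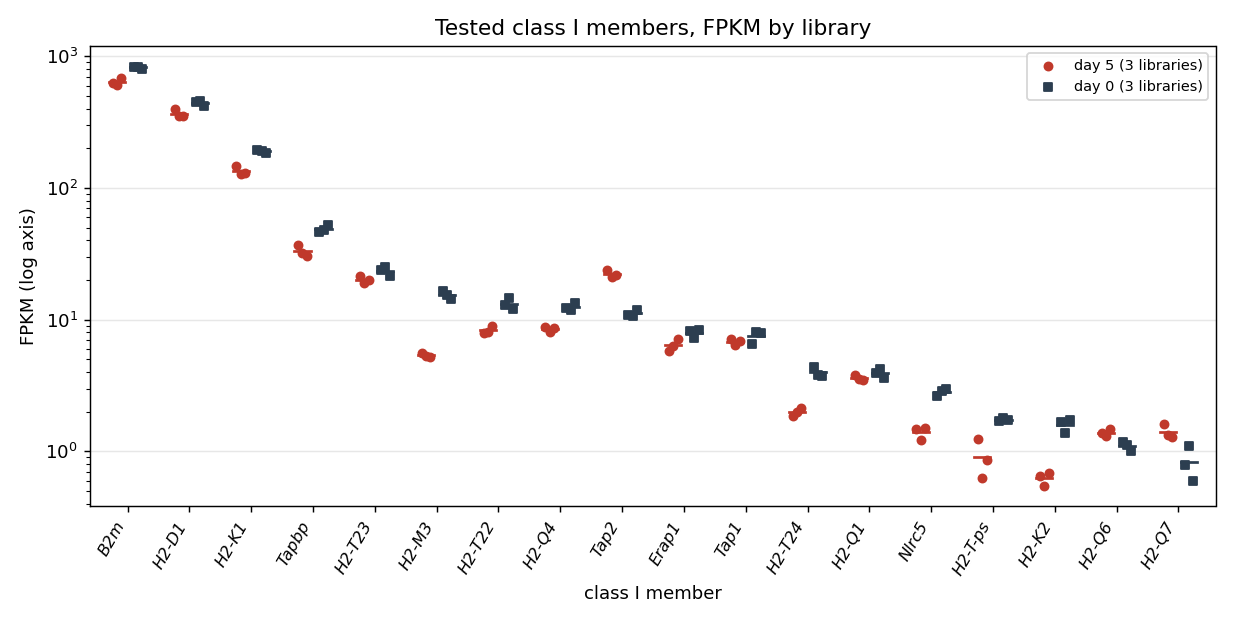
FPKM (log axis) of the 18 tested class I members in each library, with day 5 as circles left of day 0 as squares and a line at each mean of 3 libraries. H2-D1, H2-K1 and B2m lie far above the others, and Tap2 is the member with the largest rise.

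The classical heavy chains H2-D1 and H2-K1, which present peptide to CD8 T cells, made up 89.6% to 90.4% of the summed heavy chain level at day 5 and 88.6% to 88.7% at day 0. H2-D1 (ENSMUSG00000073411, chromosome 17, 35262730 to 35267499, plus strand) had 397, 352 and 353 FPKM at day 5, against 448, 455 and 418 FPKM at day 0. It fell by 0.32 ± 0.08 on the log2 scale (SE, adjusted p = 0.00671, edgeR). H2-K1 (ENSMUSG00000061232, chromosome 17, 33996017 to 34000347, minus strand) had 148, 128 and 131 FPKM at day 5, against 195, 192 and 184 FPKM at day 0, and fell by 0.55 ± 0.08 (adjusted p = 1.42e-04, edgeR). In each gene all day 5 libraries lay below all day 0 libraries. The ratio of H2-D1 to H2-K1, looked at after the values were seen, was 2.68, 2.74 and 2.70 at day 5 and 2.29, 2.37 and 2.27 at day 0, so the mix of the classical chains was shifted towards H2-D1 in every day 5 library. B2m, the light chain shared by all class I molecules (chromosome 2, 122147686 to 122153083, plus strand), was the most abundant member. It had 625, 609 and 681 FPKM at day 5, against 832, 831 and 807 FPKM at day 0, a log2 difference of -0.43 ± 0.07 (adjusted p = 3.38e-04, edgeR).

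The promoters of the most abundant class I chains and of H2-M3, the class I chain with the largest tested fall, are shown as examples. How their motifs relate to the differences between the days was not tested. Sequences are from RefSeq on GRCm38.p6 and run from 250 bases before to 50 bases after the start. The table lists more than 1 start for some members, H2-K1 among them, and the first was used. Capitals mark matches, on either strand, to 5 motifs, in which N is any base: the NF-kB motif (GGG, NN, TTCCC), the interferon-stimulated response element (GAAA, NN, GAAA), the gamma-activated site (TTC, NNN, GAA), the NF-Y motif CCAAT, and the X1 box core (AG, NN, AC, N, GATG). No matches overlap in the promoters shown.
H2-K1 (chr17:34000298-34000597, minus strand): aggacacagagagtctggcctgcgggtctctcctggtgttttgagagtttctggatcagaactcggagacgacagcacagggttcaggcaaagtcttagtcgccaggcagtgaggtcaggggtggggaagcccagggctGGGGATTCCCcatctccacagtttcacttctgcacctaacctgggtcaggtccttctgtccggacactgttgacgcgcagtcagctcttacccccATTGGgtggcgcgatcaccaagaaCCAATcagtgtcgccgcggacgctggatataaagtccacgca
H2-D1 (chr17:35262844-35263143, plus strand): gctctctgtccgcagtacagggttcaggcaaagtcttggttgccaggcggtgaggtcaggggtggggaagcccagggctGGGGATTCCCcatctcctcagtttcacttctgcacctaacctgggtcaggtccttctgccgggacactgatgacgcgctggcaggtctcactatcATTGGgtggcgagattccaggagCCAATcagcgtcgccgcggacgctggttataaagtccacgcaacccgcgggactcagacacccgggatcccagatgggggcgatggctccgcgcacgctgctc
B2m (chr2:122147437-122147736, plus strand): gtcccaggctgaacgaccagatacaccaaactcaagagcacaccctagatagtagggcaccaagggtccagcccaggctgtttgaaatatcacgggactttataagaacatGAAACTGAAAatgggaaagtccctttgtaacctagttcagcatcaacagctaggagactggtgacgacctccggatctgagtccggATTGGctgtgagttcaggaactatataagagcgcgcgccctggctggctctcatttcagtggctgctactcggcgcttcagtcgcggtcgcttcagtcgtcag
H2-M3 (chr17:37269984-37270283, plus strand): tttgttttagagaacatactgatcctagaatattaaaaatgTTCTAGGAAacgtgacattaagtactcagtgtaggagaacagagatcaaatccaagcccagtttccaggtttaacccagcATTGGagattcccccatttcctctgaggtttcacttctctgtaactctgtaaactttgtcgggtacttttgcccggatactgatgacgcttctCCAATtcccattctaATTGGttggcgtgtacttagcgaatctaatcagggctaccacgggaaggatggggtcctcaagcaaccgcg

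H2-K1 and H2-D1 each held an NF-kB match followed by CCAAT on the opposite and then on the shown strand. The same order of matches lay in H2-Q4, which fell, in H2-Q7, which rose, and in H2-Q6, which was not called. In H2-K1 the shown-strand CCAAT lay after the start used, at 8 to 12, and in H2-D1 before it, at -53 to -49. B2m held an interferon-stimulated element and 1 opposite-strand CCAAT, and H2-M3 held a gamma-activated site and 3 CCAAT matches, 1 of them on the shown strand. A promoter was matched for 30 of the 44 members, 20 of them class I. CCAAT was found in 16 of the 20 class I promoters, where 37.4% of 32851 promoters of the same length hold it. The NF-kB motif was in 5 of the 20 (1.75% of all promoters), the interferon-stimulated element in 4 (3.44%), the gamma-activated site in 1 (8.3%) and the X1 core in 0 (0.968%). These are matches of letters, and no binding was measured here.

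Nonclassical class I chains are less polymorphic and present special peptides or serve as ligands for natural killer and other innate-like receptors. H2-M3, which presents N-formylated peptides from bacteria and mitochondria, had 5.63, 5.32 and 5.19 FPKM at day 5, against 16.7, 15.3 and 14.3 FPKM at day 0. It fell 2.99-fold (ENSMUSG00000016206, chromosome 17, 37270220 to 37274484, plus strand; log2 -1.58 ± 0.11, adjusted p = 4.22e-07, edgeR), with every day 5 library under every day 0 library. No window of 75 bases of its longest coding transcript occurs in another gene of GENCODE M21, so its count is not shared with a paralog at that length. H2-T24 had 1.86, 2.00 and 2.13 FPKM at day 5, against 4.41, 3.83 and 3.71 FPKM at day 0 (log2 -1.06 ± 0.15, adjusted p = 9.95e-05, edgeR). Its difference was inside the size threshold without day 0 replicate 1, at -0.95, and with library totals in place of TMM scaling, at -0.999. H2-K2, an annotated pseudogene, had 0.65, 0.55 and 0.69 FPKM at day 5, against 1.66, 1.39 and 1.74 FPKM at day 0 (log2 -1.39 ± 0.23, adjusted p = 3.14e-04, edgeR).

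H2-T23, which encodes Qa-1, the ligand of the NKG2A inhibitory receptor, was the most abundant nonclassical chain. It had 21.4, 19.1 and 20.1 FPKM at day 5, against 23.7, 25.0 and 21.4 FPKM at day 0, and fell by 0.27 ± 0.08 on the log2 scale (adjusted p = 0.0131, edgeR). The lowest day 0 library and the highest day 5 library lay close together. The call was lost without day 0 replicate 1, day 0 replicate 2 or day 5 replicate 2, and in limma (adjusted p = 0.0523 to 0.0683, edgeR and limma). Of the H2-T23 windows 13.1% occur in other genes, so reads may be split here too. H2-T22, a ligand of some gamma-delta T cell receptors, had 7.92, 8.01 and 8.94 FPKM at day 5, against 12.9, 14.6 and 11.97 FPKM at day 0 (log2 -0.73 ± 0.09). H2-Q4 had 8.73, 8.05 and 8.64 FPKM at day 5, against 12.3, 11.9 and 13.4 FPKM at day 0 (log2 -0.63 ± 0.09). Both fell (adjusted p = 4.99e-05 and 1.02e-04, edgeR) with no overlap of the days. H2-T22 shares 26.1% of its windows with other genes, mostly H2-T10, so reads may be split between them.

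H2-Q7, a Qa-2 gene, went the other way with 1.62, 1.33 and 1.28 FPKM at day 5, against 0.79, 1.10 and 0.60 FPKM at day 0, and rose 1.64-fold (log2 0.71 ± 0.22, adjusted p = 0.0169, edgeR). Without day 5 replicate 1 this call was lost, at 0.59 (adjusted p = 0.0648, edgeR). Its neighbour H2-Q6 had 1.39, 1.31 and 1.47 FPKM at day 5 and 1.17, 1.11 and 1.01 FPKM at day 0, a log2 difference of 0.28 with a 95% interval of -0.14 to 0.70. Of the windows of H2-Q7 and H2-Q6, 21.7% and 17.9% occur in other genes, most often in each other, so their levels are uncertain. H2-Q1 had 3.82, 3.55 and 3.51 FPKM at day 5 and 3.95, 4.23 and 3.60 FPKM at day 0 (95% interval of the log2 difference -0.43 to 0.08). Of the H2-Q1 windows 17.3% occur in other genes, most often in H2-Q2 and next in the far more abundant H2-D1, so its level is also uncertain. H2-T-ps, a pseudogene, fell by 0.98 ± 0.28 with 1.25, 0.63 and 0.86 FPKM at day 5, against 1.69, 1.78 and 1.73 FPKM at day 0, and its log2 difference was -1.29 without day 5 replicate 1. Without day 5 replicate 2 it was -0.77 and no longer called (adjusted p = 0.0537, edgeR). Of the H2-T-ps windows 11.0% occur in other genes. It overlaps Gm7030, which averaged 3.83 counts per library, on its own strand over 1940 of its 2425 bases. The mouse H2 genes are highly polymorphic and the strain is not given in the labels, so how far the haplotype of these mice differs from the reference is not known.

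The other 11 class I chains were under the filter. H2-M10, H2-M6-ps and H2-T3 had no count in any library, a result that allows up to 3 counts per library. Among the rest the highest mean was that of H2-M1, 1.04 ± 0.313 FPKM at day 5 and 0.853 ± 0.0945 FPKM at day 0. H2-M2 had 65, 62 and 87 counts at day 5, against 10, 29 and 19 at day 0, and H2-Q10 had 10, 4 and 9 counts at day 5, against 50, 53 and 55 at day 0. In the fit without a filter, given here as a description, their log2 differences were 1.88 (adjusted p = 0.0136, edgeR) and -2.78 (adjusted p = 0.00343, edgeR). H2-T10 was at -0.84 in the same fit (adjusted p = 0.0114, edgeR), and H2-M1, H2-M5, H2-M9, H2-Q2 and H2-Q5 had adjusted p-values of 0.229 to 0.994 (edgeR).

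Of the 5 loading and control genes 3 fell and 1 rose, where 28.8% and 26.6% of all genes did, and Tap1 was not called. Tap1 and Tap2 encode the chains of the peptide transporter. Tap2 (ENSMUSG00000024339, chromosome 17, 34203527 to 34216321, plus strand) had 23.9, 21.2 and 21.7 FPKM at day 5, against 10.9, 10.6 and 11.9 FPKM at day 0. It rose 1.91-fold (log2 0.93 ± 0.08, adjusted p = 1.84e-06, edgeR), just under the size threshold. Tap1 (chromosome 17, 34187553 to 34197225, plus strand) had 7.08, 6.45 and 6.85 FPKM at day 5, against 6.50, 8.07 and 7.89 FPKM at day 0. The Tap1 days overlapped, and the 95% interval of its log2 difference was -0.40 to 0.0021. Without day 0 replicate 1 it fell by 0.26 (adjusted p = 0.0269, edgeR). The ratio of Tap2 to Tap1, looked at after the values were seen, was 3.38, 3.28 and 3.16 at day 5 and 1.68, 1.32 and 1.51 at day 0, so each day 5 library had more Tap2 per Tap1 than any day 0 library. Neither gene shares a 75-base window with another gene, and Tap2 rose in the fit under every alternative tried, with log2 differences of 0.87 to 1.0.

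Tapbp, encoding tapasin, the chaperone that bridges class I to the transporter, had 37.2, 32.3 and 30.7 FPKM at day 5, against 46.2, 47.9 and 52.0 FPKM at day 0. It fell by 0.61 ± 0.09 (adjusted p = 1.12e-04, edgeR). Erap1, the peptidase that trims peptides in the endoplasmic reticulum, had 5.80, 6.28 and 7.08 FPKM at day 5, against 8.26, 7.26 and 8.40 FPKM at day 0, and fell by 0.38 ± 0.09 (adjusted p = 0.00460, edgeR). Tapbp overlaps Zbtb22 on its own strand over 3422 bases and Erap1 overlaps the end of Cast over 834 bases on the opposite strand, and the sources used here do not say how reads in such overlaps were assigned. Nlrc5, the transactivator of class I genes (ENSMUSG00000074151, chromosome 8, 94434356 to 94527272, plus strand), had 1.48, 1.22 and 1.51 FPKM at day 5, against 2.63, 2.85 and 2.99 FPKM at day 0. It fell 2.09-fold (log2 -1.07 ± 0.11, adjusted p = 7.10e-06, edgeR), and by 0.98, under the size threshold, without day 5 replicate 2.

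**Figure D2:**
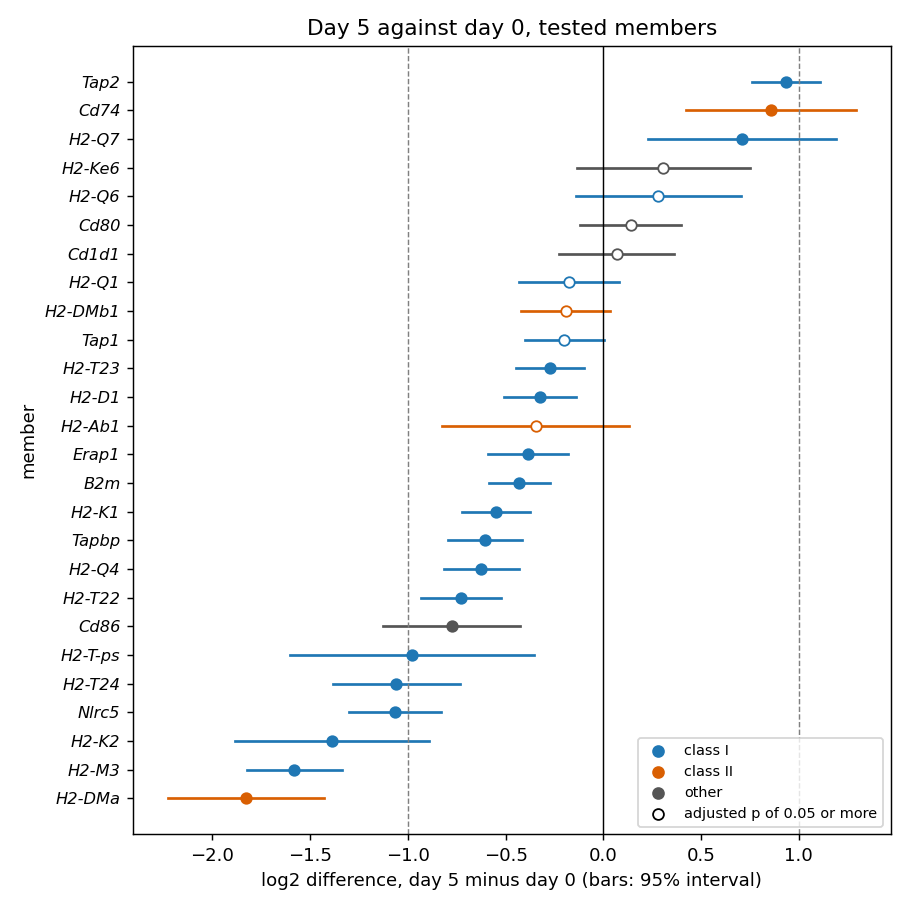
Log2 difference, day 5 minus day 0, of the 26 tested members with 95% intervals from edgeR. Filled points had an adjusted p under 0.05, dashed lines mark the size threshold, and 5 members lie below -1 while none lies above 1.

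The peptide-binding class II chains were near or under 1 FPKM on both days, while the DM chain H2-DMb1 stood above 11 FPKM in every library. Of the tested members that serve the loading of peptide, H2-DMa fell, Cd74 rose and H2-DMb1 was not called. Of 11 class II members 4 were tested. One fell (25.0%, against 28.8% of all genes tested) and 1 rose (25.0%, against 26.6%). In either direction 2 of 4 were called, where 55.5% of all genes were. Past the size threshold 1 of 4 fell, against 6.47% of all genes. The 4 had a median of -0.27 on the log2 scale. The peptide-binding chains H2-Aa, H2-Ab1 and H2-Eb1 summed to 2.29, 2.02 and 2.51 FPKM at day 5 and 2.75, 2.20 and 1.80 FPKM at day 0, with overlapping days. The same libraries had a summed class I heavy chain level of 533 to 603 FPKM at day 5 and 679 to 729 FPKM at day 0.

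**Figure D3:**
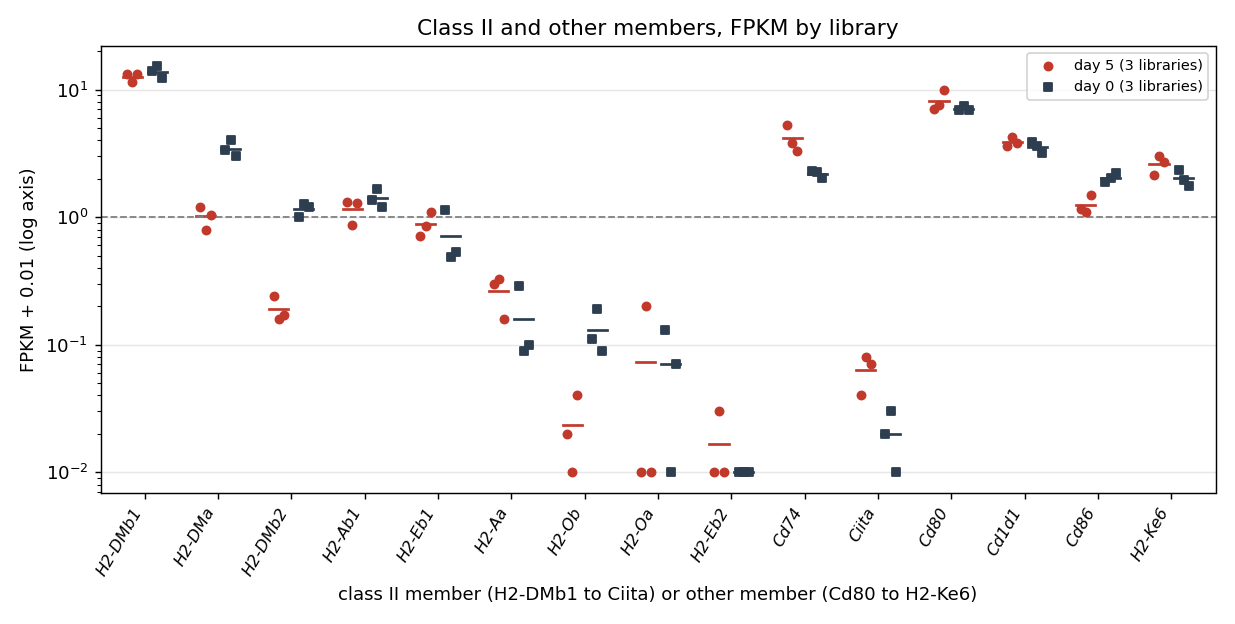
FPKM plus 0.01 (log axis) of the 11 class II members and the 4 other members in each library, with day 5 as circles left of day 0 as squares and a line at each mean of 3 libraries. The dashed line marks 1 FPKM, and H2-DMa, H2-DMb2 and H2-Ob are lower at day 5 while Cd74 and Ciita are higher.

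H2-Ab1, the beta chain of I-A, had 1.30, 0.86 and 1.27 FPKM at day 5, against 1.35, 1.64 and 1.19 FPKM at day 0, a log2 difference of -0.35 with a 95% interval of -0.83 to 0.13. H2-Aa, its alpha chain, had 0.29, 0.32 and 0.15 FPKM at day 5, against 0.28, 0.08 and 0.09 FPKM at day 0. H2-Eb1, the beta chain of I-E, had 0.70, 0.84 and 1.09 FPKM at day 5, against 1.12, 0.48 and 0.52 FPKM at day 0. In all 3 the days overlapped, and H2-Aa and H2-Eb1 were under the filter. Day 0 replicate 1 was the highest day 0 library for H2-Aa and H2-Eb1. H2-Eb2 was counted in 1 library, with 4 counts, and H2-Oa, a chain of the DM inhibitor DO, in 3 of 6 libraries, with 8 to 20 counts.

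H2-DMa encodes the alpha chain of DM, the exchange factor that loads peptide. It had 1.19, 0.79 and 1.03 FPKM at day 5, against 3.34, 4.0 and 2.98 FPKM at day 0, and fell 3.56-fold (ENSMUSG00000037649, chromosome 17, 34119541 to 34139101, plus strand; log2 -1.83 ± 0.18, adjusted p = 6.73e-06, edgeR). It overlaps Brd2 on the opposite strand over 3079 of its 19561 bases, and H2-DMa averaged 581 counts per library against 21260 for Brd2, so its count is uncertain. Brd2 itself was higher at day 5, at 43.9 ± 0.674 FPKM, against 28.3 ± 1.55 FPKM at day 0. H2-DMb1, the main beta chain, was the most abundant class II member with 13.4, 11.4 and 13.2 FPKM at day 5 and 13.9, 15.2 and 12.4 FPKM at day 0, overlapping days and a 95% interval of the log2 difference of -0.42 to 0.04. The ratio of H2-DMb1 to H2-DMa, looked at after the values were seen, was 11.2, 14.4 and 12.8 at day 5 and 4.16, 3.81 and 4.17 at day 0. H2-DMb2, the second beta chain, had 30, 19 and 21 counts at day 5, against 118, 163 and 179 at day 0. It was under the filter, and the fit without a filter gave a log2 difference of -2.71 (adjusted p = 2.02e-04, edgeR). H2-DMb1 has 19.1% of its windows in H2-DMb2, so reads may be split between them. H2-Ob, the beta chain of DO, had 4, 0 and 12 counts at day 5, against 39, 76 and 40 at day 0 (log2 -3.27 without a filter, adjusted p = 0.0326, edgeR).

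Cd74 rose, and Ciita had more counts at day 5, both at low levels. Cd74, the invariant chain (ENSMUSG00000024610, chromosome 18, 60803848 to 60812646, plus strand), had 5.31, 3.80 and 3.32 FPKM at day 5, against 2.28, 2.24 and 2.02 FPKM at day 0. It rose 1.81-fold (log2 0.86 ± 0.20, adjusted p = 0.00334, edgeR), and day 5 replicate 1 was the highest library. Ciita, the transactivator of class II genes, had 24, 47 and 47 counts at day 5, against 4, 13 and 0 at day 0, which is 0.07 FPKM or less in every library. It was under the filter, and the fit without a filter gave a log2 difference of 2.72 (adjusted p = 0.0887, edgeR). With filterByExpr, edgeR's own filter, it was 2.72 and passed (adjusted p = 0.0379, edgeR). Of its 46368 bases 23896 lie over Dexi on the opposite strand, which averaged 352 counts per library. The ratio of Cd74 to H2-Ab1, looked at after the values were seen, was 4.09, 4.42 and 2.61 at day 5 and 1.69, 1.37 and 1.70 at day 0.

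Markers of the cell types that make class II constitutively ranged widely in level. Among the dendritic cell markers Flt3 had no count in any library, and Siglech, Cd209a and Clec9a averaged 0.0167 FPKM or less on each day. Zbtb46 averaged 0.467 ± 0.1 FPKM at day 5 and 0.267 ± 0.0651 FPKM at day 0, and Ccr7 averaged 0.207 ± 0.0635 FPKM at day 5 and 0.01 ± 0.0173 FPKM at day 0. The whole list of 9 summed to 154.5 to 169.9 CPM at day 5 and 244.2 to 301.9 CPM at day 0, most of it Fscn1, an actin-bundling protein not limited to dendritic cells. For B cells 8 markers were present and 3 of them tested, and the list summed to 68.1 to 77.2 CPM at day 5 and 94.5 to 115.3 CPM at day 0. Ms4a1, Cd79a and Pax5, which define B cells, averaged 0.00333 FPKM or less on each day. Blnk, an adaptor also used in myeloid cells, averaged 6.82 ± 0.745 FPKM at day 5 and 10.1 ± 1.28 FPKM at day 0, and Cd22 averaged 0.757 ± 0.221 FPKM at day 5 and 1.36 ± 0.201 FPKM at day 0, and both fell. Ebf1 averaged 2.57 ± 0.206 FPKM at day 5 and 2.88 ± 0.354 FPKM at day 0 and was not called, and Cd79b averaged 0.33 ± 0.218 FPKM at day 5 and 0.807 ± 0.17 FPKM at day 0. The 6 T and NK cell markers present summed to 0.529 CPM or less in every library. Their part in the class II values was not tested.

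Promoters of H2-Eb1 and H2-DMb1 are shown for the class II pattern of an X1 box followed by a Y box, with capitals as above.
H2-Eb1 (chr17:34305617-34305916, plus strand): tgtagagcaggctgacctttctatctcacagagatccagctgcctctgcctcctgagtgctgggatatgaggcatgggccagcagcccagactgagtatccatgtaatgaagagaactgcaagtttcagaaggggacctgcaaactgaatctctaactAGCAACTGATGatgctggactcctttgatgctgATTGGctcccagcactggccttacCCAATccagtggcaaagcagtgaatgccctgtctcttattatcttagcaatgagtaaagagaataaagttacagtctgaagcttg
H2-DMb1 (chr17:34152941-34153240, plus strand): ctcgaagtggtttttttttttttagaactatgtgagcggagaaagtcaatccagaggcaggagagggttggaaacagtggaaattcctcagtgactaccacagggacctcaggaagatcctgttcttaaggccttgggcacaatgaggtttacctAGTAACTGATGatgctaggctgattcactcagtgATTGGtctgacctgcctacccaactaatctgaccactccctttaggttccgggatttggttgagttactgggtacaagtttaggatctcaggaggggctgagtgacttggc

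In H2-Eb1 and H2-Eb2 22 bases, in H2-DMb1 23 bases and in H2-Oa 87 bases lay between the X1 core and the opposite-strand CCAAT that follows it. The X1 core was in 4 of 8 matched class II promoters, H2-DMb1, H2-Eb1, H2-Eb2 and H2-Oa, against 0.968% of all promoters, and CCAAT was in 7 of 8, against 37.4%. The NF-kB motif was in 2 of the 8, the gamma-activated site in 1 and the interferon-stimulated element in 0. Of the promoters with an X1 core, only that of H2-DMb1 belonged to a tested member.

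Of the 44 members 36 lie on chromosome 17, between 33915899 and 37483552 in coordinates that match GRCm38. Neighbours within the class II region differed in size of change or in direction. Over the 249.1 kb from H2-Oa to H2-Eb2 14 of the 17 genes in the table, all but Gm50335, Gm20493 and Gm15821, run in the order H2-Oa, Brd2, H2-DMa, H2-DMb2, H2-DMb1, Psmb9, Tap1, Psmb8, Tap2, H2-Ob, H2-Ab1, H2-Aa, H2-Eb1 and H2-Eb2. H2-DMb2 and H2-DMb1 are 1.52 kb apart, with log2 differences of -2.71 and -0.17 in the fit without a filter. Tap2 rose while Psmb8, an immunoproteasome subunit 2.07 kb before it, fell by 0.48 ± 0.09 (adjusted p = 7.13e-04, edgeR). Psmb9, another immunoproteasome subunit that overlaps the start of Tap1 by 212 bases on the opposite strand, fell by 0.78 ± 0.14 (adjusted p = 7.47e-04, edgeR), and the test gave no call for Tap1 itself.

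**Figure D4:**
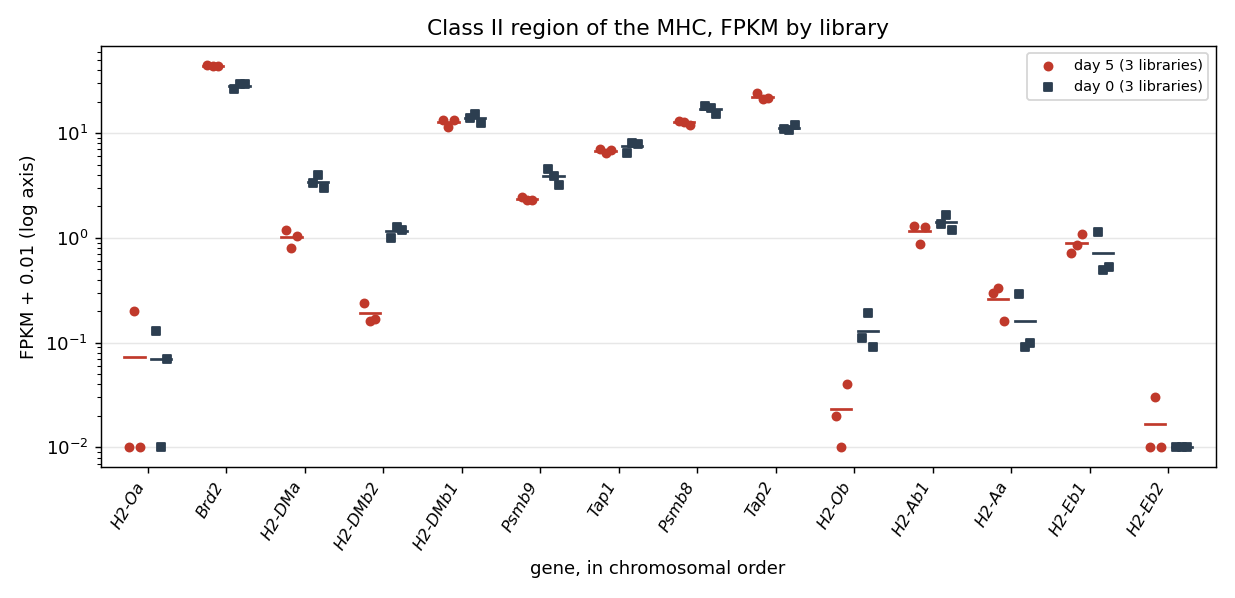
FPKM plus 0.01 (log axis) of 14 genes of the class II region of chromosome 17, in chromosomal order, in each library (day 5 circles left of day 0 squares, lines at means of 3). Tap2 and Brd2 are higher at day 5, H2-DMa, H2-DMb2, Psmb9, Psmb8 and H2-Ob are lower, and H2-DMb1 and Tap1 overlap between the days.

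The other members were the costimulatory ligands, Cd1d1 and H2-Ke6. CD80 and CD86 bind CD28 and CTLA-4 on T cells. Cd86 had 1.14, 1.09 and 1.48 FPKM at day 5, against 1.88, 2.01 and 2.20 FPKM at day 0, and fell 1.71-fold (log2 -0.78 ± 0.16, adjusted p = 0.00168, edgeR) with no overlap. Cd80 had 6.98, 7.59 and 9.93 FPKM at day 5, against 6.94, 7.38 and 6.95 FPKM at day 0, a log2 difference of 0.14 with a 95% interval of -0.12 to 0.40 in which day 5 replicate 3 stood highest. The ratio of Cd80 to Cd86, looked at after the values were seen, was 6.12, 6.96 and 6.71 at day 5 and 3.69, 3.67 and 3.16 at day 0. Cd1d1, which presents lipids to NKT cells, had 3.63, 4.25 and 3.80 FPKM at day 5 and 3.89, 3.58 and 3.18 FPKM at day 0 (95% interval of the log2 difference -0.22 to 0.36). Of the Cd1d1 windows 19.4% occur in Cd1d2, so reads may be split between them. H2-Ke6, an MHC-region gene that encodes no MHC molecule, had 2.13, 3.01 and 2.72 FPKM at day 5 and 2.35, 1.96 and 1.74 FPKM at day 0, and 52.0% of its windows lie in the overlapping model Gm20427. So 1 of these 4 fell, where 28.8% of all genes tested did.

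Other steps of the pathways were read from lists of genes outside the 44. The counts of each list stand beside the shares over all 11908 genes tested, of which 28.8% fell and 26.6% rose, 6.47% and 5.84% past the size threshold. Of 12 class I pathway genes, all tested, 6 fell (28.8% of all genes did) and 0 passed the size threshold in either direction (12.3% did). Their median was -0.16 on the log2 scale. The 6 were Psmb8, Psmb9 and Psmb10 of the immunoproteasome, its activator subunit Psme1, the loading-complex oxidoreductase Pdia3 and the tapasin relative Tapbpl. Without day 5 replicate 2 Pdia3 was no longer called (adjusted p = 0.0533, edgeR). Calr, the lectin chaperone of the loading complex and the most abundant of the list, had 501.3 ± 34.1 FPKM at day 5 and 444.1 ± 20.8 FPKM at day 0, with overlapping days. At an unadjusted p under 0.05 the same 6 genes passed in edgeR, and DESeq2 also put 0 past the size threshold.

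Of 9 class II pathway genes 7 fell and 2 rose (28.8% and 26.6% of all genes), 3 and 1 of them past the size threshold (6.47% and 5.84%), with a median of -0.67. The fall of Sppl2a, 1 of the 7, was lost in limma and without day 0 replicate 1 or 3 (adjusted p = 0.0524 to 0.0645, edgeR and limma). Ifi30, the lysosomal thiol reductase that unfolds antigens, had 710, 659 and 602 FPKM at day 5, against 133, 124 and 137 FPKM at day 0, and rose 4.79-fold (log2 2.26 ± 0.09, adjusted p = 4.51e-09, edgeR). The lowest day 5 library was far above the highest day 0 library. Marchf1, the ubiquitin ligase that removes class II and CD86 from the cell surface, had 1.17, 0.86 and 1.15 FPKM at day 5, against 4.76, 3.95 and 4.95 FPKM at day 0 (log2 -2.16 ± 0.14, adjusted p = 2.06e-07, edgeR). The endosomal proteases Lgmn and Ctss, which cut antigen and the invariant chain, averaged 144.2 ± 11.6 and 365.5 ± 38.4 FPKM at day 5, against 448.8 ± 32.3 and 757.9 ± 37.8 FPKM at day 0, and fell 3.24-fold and 2.17-fold.

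Of 7 tested MHC class I-like genes 4 fell and 1 rose (28.8% and 26.6% of all genes), 2 and 0 past the size threshold (6.47% and 5.84%), with a median of -0.81. They were Hfe, which binds the transferrin receptor and limits iron uptake, with 6.87, 6.55 and 6.86 FPKM at day 5, against 28.1, 32.6 and 25.4 FPKM at day 0 (log2 -2.14 ± 0.09, adjusted p = 7.86e-09, edgeR), and Fcgrt, the neonatal Fc receptor for IgG and albumin, with 17.8, 19.5 and 17.7 FPKM at day 5, against 49.8, 54.8 and 52.9 FPKM at day 0 (log2 -1.58 ± 0.07, adjusted p = 1.15e-08, edgeR). Both partner with B2m, and both fell by more than H2-K1 or H2-D1. The test of the difference between these genes was not made.

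Of 14 tested regulators of MHC transcription 6 fell and 2 rose (28.8% and 26.6% of all genes), with a median of -0.08. Past the size threshold were 2 of the 14, near the 12.3% of all genes. Of the 6, Rela was no longer called in 9 alternatives, those without day 0 replicate 2 or 3 or day 5 replicate 2 or 3 included (adjusted p = 0.0807 to 0.131, edgeR). Irf8 and Irf1, interferon regulatory factors, averaged 2.71 ± 0.333 and 6.24 ± 0.282 FPKM at day 5, against 10.3 ± 0.657 and 12.7 ± 0.848 FPKM at day 0. The 2 that rose were Spi1 and Nfyc. They averaged 155.9 ± 7.84 and 14.25 ± 0.652 FPKM at day 5, against 78.41 ± 3.78 and 10.68 ± 0.935 FPKM at day 0. Of the other NF-Y genes Nfya fell and Nfyb was not called. Rfx5, Rfxap and Rfxank, the subunits of the RFX complex that binds the X1 box, had log2 differences of -0.09, 0.19 and -0.01 with adjusted p-values of 0.425 to 0.972 (edgeR). Of 9 tested interferon signalling genes 7 fell and 0 rose (28.8% and 26.6% of all genes), 2 of them past the size threshold (6.47%), with a median of -0.75. These were Stat2, at 2.50 ± 0.137 FPKM at day 5 and 8.27 ± 0.626 FPKM at day 0, and Irf9, at 3.64 ± 0.101 FPKM at day 5 and 8.24 ± 0.967 FPKM at day 0, both of which act in the type I interferon response.

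Of 11 tested costimulatory and coinhibitory genes 6 fell and 1 rose (28.8% and 26.6% of all genes), 5 and 0 past the size threshold (6.47% and 5.84%), with a median of -0.46. Icosl, the ligand of ICOS on T cells, had 0.26, 0.20 and 0.26 FPKM at day 5, against 2.87, 3.36 and 2.90 FPKM at day 0, and fell 13.2-fold (adjusted p = 9.68e-09, edgeR). It reached 1 FPKM at day 0 only, as did Cd40, the receptor for T cell help, at 0.777 ± 0.0493 FPKM at day 5 and 2.73 ± 0.339 FPKM at day 0. At their day 5 levels both were tested only because day 0 was higher, so the counts of this list describe its tested genes only. Lgals9, the lectin galectin-9, had 22.7 ± 0.671 FPKM at day 5 and 67.0 ± 3.93 FPKM at day 0. The others past the size threshold were Vsig4 and Tnfsf9, the second at -0.89 without day 0 replicate 3 and -0.87 without day 5 replicate 2, and the 1 that rose was Cd276.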

How the data were processed

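RNA was measured by sequencing in 3 day 5 and 3 day 0 libraries. These were made from poly(A) RNA with dUTP in the second strand and read as pairs on an Illumina NovaSeq, per the labels' protocols. The submitters' processing notes list StringTie, HISAT2, fastp and edgeR and the human build GRCh38. No versions are given, and whether strand was used in counting is not stated. All 44 genes match mouse GENCODE M21 (GRCm38) by chromosome, 37 with the same start and end. Per the file headers, the authors deposited whole-number counts and FPKM values per gene and library. Low counts favour multiples of 4 (5021 entries of 4, against 2196 of 3 and 1488 of 5), so 1 count need not be 1 fragment. Intervals and floors cover counting error only.

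Counts were scaled by TMM and tested with edgeR 4.0.16 in R 4.3.3, with no replicate block. The SE is the size of the log2 difference over the root of its F statistic. With 3 against 3 libraries an exact permutation test cannot go below p = 0.1. No pair of libraries of a day agreed within sampling noise (smallest chi-square per degree of freedom 22.9). The fit was tested on simulated data. Alternatives used limma 3.58.1 and DESeq2 1.42.0. Values in every library are given for the main chains, loading and control genes and for other members that were called or reached a mean of 10 FPKM. From each further list up to 3 genes past the size threshold with the largest difference are named, or the most abundant. Other named genes were chosen after their values were seen. The members and lists were chosen with earlier results of these data known. Promoters were matched by symbol. Paralog overlap was taken from windows of 75 bases. Figures were drawn with matplotlib 3.10.9.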

Additional observations from a re-analysis of the deposited data

How the results depend on the processing

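Under every alternative with all 6 libraries, no tested member changed direction. The count of 1465 genes past the size threshold was 2303 without the filter, 2366 with filterByExpr, 973 in limma on log2(FPKM + 1), 3816 at a log2 threshold of 0.5 and 6608 with none. For class I, 4 members past the threshold became 3 with library totals, 1 in limma on log2(FPKM + 1) (H2-M3) and 2 in limma on log2(FPKM + 0.1) (H2-M3 and H2-K2). They became 11 at 0.5 and 15 with no size threshold. Without the filter or with filterByExpr they became 6, of which 5 were lower at day 5 and 1, H2-M2, was higher. For class II, 1 became 3 without the filter, 4 with filterByExpr and 2 at 0.5 or with no size threshold. Class II members with an adjusted p under 0.05 of any size went to 4 without the filter and 5 with filterByExpr, against 2 with it. For the other members 0 became 1 at 0.5 or with no size threshold. Leaving out each replicate in turn gave 1446 to 1525 genes, 3 to 5 class I members past the size threshold (13 to 15 with an adjusted p under 0.05 of any size) and 1 to 2 class II members, the 2 being reached without day 5 replicate 3, when Cd74 was at 1.01. Cd1d1 and Cd80, which were not called, had log2 differences of -0.0018 to 0.17 and -0.0097 to 0.24 when replicates were left out. With a replicate block the counts were 1470 genes, 5 class I members and 1 class II member, H2-T-ps being added at -1.03. The labels do not say that same-numbered libraries are pairs. Their deviations from the day means correlated at -0.0726, 0.147 and 0.0256, and not every library correlated best with its own number. Of the further lists, regulators and interferon signalling each went from 2 called genes to 1 in limma on log2(FPKM + 1). Regulators went to 3 without the filter or with filterByExpr. The costimulatory list went from 5 to 4 in limma on log2(FPKM + 1) and without day 0 replicate 3 or day 5 replicate 2. Class I-like genes went from 2 to 3 without day 5 replicate 1 or 3. Among members under 1 FPKM the filter decides what is tested, which limits what can be said of most class II genes.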
